A study of Rattus norvegicus with 4 samples.

Results

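Endothelial cells, which line blood and lymph vessels, were picked out of 2 of the 4 libraries of a rat single-cell RNA series, and the cells of each library are described apart and then set side by side. The cells were chosen by their measured counts of marker genes, so the levels of those genes are no finding. Barcodes with fewer than 500 genes, or with mitochondrial transcripts above 20% of UMIs (unique molecular identifiers, which count captured transcripts), were left out. A barcode then needed at least 2 of Cdh5, Flt1, Kdr, Egfl7, Cldn5 and Vwf, a sum of these 6 genes of at least 4 UMIs and 8 per 10000, and a sum above that of the fibroblast genes Dcn, Lum and Pdgfra and that of the mural genes Rgs5 and Acta2. The rule found 745 cells, 125 in library 1 and 620 in library 2, among 41444 barcodes in all libraries. The labels give 4 groups of Sprague Dawley rats with 1 sample each and sex not determined: sciatic nerve at 8 weeks, sciatic nerve at 1 day, dorsal root ganglion at 8 weeks and dorsal root ganglion at 1 day. The number at the end of a barcode (1 to 4) tells libraries apart. The sources used here do not link these numbers to samples, and neither library was assigned to a group. The labels also describe a Schwann cell culture in medium with 10% serum and leave unstated if cells were cultured before sequencing and how many animals were pooled. Libraries were made with the 10x Genomics 3' kit.

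Vessels inside a peripheral nerve form the blood-nerve barrier: their endothelial cells are joined by tight junctions and carry nutrient and efflux transporters. Vessels of the nerve sheath and of the ganglion are more open to the blood. Venules are where leukocytes attach, through selectins and adhesion molecules that inflammatory signals raise, and lymphatic vessels, which drain fluid and carry immune cells, are specified by the transcription factor Prox1. These are textbook roles, given here as background.

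Library 1 gave 125 endothelial cells among 9828 barcodes past the filters, a share of 1.27% (95% interval 1.06% to 1.51%), and library 2 gave 620 among 8426, a share of 7.36% (6.81% to 7.94%). The endothelial cells had a median of 5410 UMIs and 1775 genes in library 1 and of 6007.5 UMIs and 2068.5 genes in library 2, and their summed depth was 812800 UMIs in library 1 and 4328961 UMIs in library 2. Mitochondrial genes took a median of 7.51% of UMIs in library 1 and 7.55% in library 2. All intervals are exact and cover counting error only. They are Clopper-Pearson intervals for shares and, in conditional form, for ratios, and Poisson intervals for levels. With 1 library on each side no test between libraries was possible, no p-value is given, and nothing here says how samples of 1 group would vary. Tissue, age, handling and library cannot be told apart in any difference between the 2. Libraries 1 and 2 shared 26 barcodes, and none of these was endothelial in both.

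Levels are UMIs per 1000000 summed endothelial UMIs of a library (CPM), and ratios are log2 ratios of CPM with a floor of 3 UMIs on each side. A gene was measured where 1 side had at least 20 UMIs and was called where the ratio was 2-fold or more. The floor is a higher level in library 1 than in library 2, because library 1 has fewer endothelial UMIs, so a gene low in library 2 cannot be seen as lower in library 1.

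The genes of the rule describe the choice and are not a result. Their sum had a median of 22 UMIs per cell in library 1 and 30 in library 2. Just inside the limit, at a sum of 4 UMIs, lay 1 cell of library 1 and 21 cells of library 2, and just outside, at 3 UMIs, lay 0 barcodes of library 1 and 15 of library 2. Of barcodes that met the limits on genes and UMIs, the limit of 8 per 10000 removed 36 in library 1 and 19 in library 2. After that, fibroblast genes removed 14 barcodes in library 1 and 6 in library 2, and mural genes removed 0 in library 1 and 3 in library 2. Vwf, the carrier of clotting factor VIII, was at 1056 CPM in library 1 and 173 CPM in library 2. Kdr, the main VEGF receptor, was at 273 CPM in library 1 and 623 CPM in library 2. Vwf was detected in 72.0% of cells in library 1 and 27.4% in library 2.

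The label held against endothelial genes that the rule did not use. Pecam1 and Cd93 were not analysed here. Of the other 17 identity genes, 16 were measured over the rest of library 1 and 15 were called higher, with a median log2 ratio of 5.95, where 34.4% of all measured genes were called higher and the median of all was 0.46. In library 2 all 16 measured were called higher, with a median of 6.38, where 23% of all genes were called higher and the median of all was -0.03. Emcn, a sialomucin of the endothelial surface, was at 912 CPM in endothelial cells and 1.56 CPM in the rest of library 1, and at 1393 CPM in endothelial cells and 6.59 CPM in the rest of library 2. Ptprb, the endothelial receptor phosphatase, was at 301 CPM in endothelial cells and 0.58 CPM in the rest of library 1. It was at 195 CPM in endothelial cells and 1.25 CPM in the rest of library 2. Cd34, which fibroblasts also make, was the member not called in library 1, with a log2 ratio of 0.25.

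Transcription factors of the endothelial lineage were higher than in the rest in both libraries. All 21 were measured, 19 were called higher over the rest in library 1 (median log2 ratio 4.26) and 21 in library 2 (5.67). Erg, an ETS factor that keeps endothelial identity, was at 298 CPM in endothelial cells of library 1, against 0.47 CPM in the rest. Sox17, a factor of arterial and barrier endothelium, was at 143 CPM in library 1 and 387 CPM in library 2, a log2 ratio of -1.44 (-1.72 to -1.17). Between libraries the 21 factors had a median log2 ratio of -0.33, with 3 called higher in library 1 and 5 lower, and the identity genes a median of -0.23, with 2 higher and 1 lower. These medians lie close to -0.27, the median of all 9053 measured genes, of which 8.3% were called higher in library 1 and 19.1% lower.

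The 10 highest ratios over the rest of library 1, among genes with 50 or more endothelial UMIs, included Fam110d at 689 CPM in endothelial cells and 0.73 CPM in the rest, and Myct1, a known endothelial target of ETS factors, at 82.4 CPM in endothelial cells and 0.11 CPM in the rest. Csf3, the granulocyte colony-stimulating factor, was also among them, at 328 CPM in endothelial cells and 0.26 CPM in the rest. In library 2 the 10 highest included Ccl21 and Mmrn1, which mark lymphatic endothelium, and Car4, a carbonic anhydrase of capillaries, at 152 CPM in endothelial cells and 0.55 CPM in the rest. Tbx1 and Flt4, known from lymphatic endothelium too, were also among them but were spread more widely: of their UMIs in library 2, the lymphatic-like cluster 2g described below held 25.3% for Tbx1 and 16.5% for Flt4. Notum, a secreted enzyme that inactivates Wnt ligands, was at 14.8 CPM in endothelial cells and 0.04 CPM in the rest of library 2.

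RNA of other cell types was found in the endothelial cells of both libraries. Col1a1, the collagen of fibroblasts, was detected in 93.6% of endothelial cells of library 1, at 650 CPM in them and 46766 CPM in the rest of the library. In library 2, Prph, a neurofilament of sensory neurons, was detected in 94.2% of endothelial cells, at 469 CPM in them and 3703 CPM in the rest. The ratio of Col1a1 to Dcn UMIs was 2.31 in endothelial cells and 2.61 in the rest of library 1, and the ratio of Tubb3 to Prph UMIs was 1.09 in endothelial cells and 0.944 in the rest of library 2. The lowest ratios between libraries, among genes with 100 or more UMIs found in 10% or more of the cells where higher, were in such genes. Stmn2, Tubb3, Uchl1 and Calca, genes of neurons, came first, with log2 ratios of -7.28, -7.11, -7.01 and -6.97. Calca had 0 UMIs in library 1, so its ratio is a bound set by the floor. Among the 5 highest in library 1 by the same limits were Col1a1 (4.24) and Cd74 (4.56), an MHC class II chaperone of which 75.3% of the 93 UMIs lay in 1 cell.

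Summed over whole marker lists, the 7 fibroblast genes took 1646 to 1948 CPM in the clusters of library 1 described below and 31.5 to 900 CPM in those of library 2. The 7 neuron genes took 0 to 23.8 CPM in library 1, where Snap25, Nefl, Nefm and Scn9a had no UMI, and 1119 to 3541 CPM in library 2. The 9 glia genes took 0 to 15.3 CPM in library 1, where Sox10, Cdh19, Erbb3 and Kcnj10 had no UMI, and 21.0 to 3688 CPM in library 2. The 9 mural genes took 47.3 to 630 CPM in library 1, where Myh11 had no UMI, and 0 to 1861 CPM in library 2. The 8 macrophage genes took 54.4 to 111 CPM in library 1 and 0 to 84.6 CPM in library 2, with no gene at 0 in either. The 5 perineurial genes took 31.7 to 357 CPM in library 1 and 29.6 to 228 CPM in library 2, mostly from Itgb4, an integrin subunit that is not restricted to that cell type. Markers of T cells and neutrophils took at most 11.9 CPM in any cluster of either library, and platelet markers at most 24.1 CPM. What part of a difference between libraries comes with these markers was not tested.

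The 125 cells of library 1 fell into 5 clusters, named by the library and a letter. Since the clusters were made from these genes, their genes describe them and are no test. Cluster 1a (29 cells) and cluster 1e (15 cells) were venous-like by 4 markers each, among them the selectins Selp and Sele and the prostaglandin carrier Slco2a1. Cluster 1d (28 cells) was lymphatic-like, with all 7 lymphatic markers and Ccl21, Mmrn1 and Lyve1 leading. The venous markers Nr2f2 and Ephb4 marked 1d and neither 1a nor 1e. Ephb4 was at 178 CPM in 1d, 12.1 CPM in 1a and 41.7 CPM in 1e. Cluster 1c (34 cells) was led by the transporters Slco1a4, Abcg2 and Slc2a1 and stayed unnamed, since it had 3 arterial markers but a capillary marker among its leading genes. Cluster 1b (19 cells) was led by Hamp, Csf3 and Cxcl1 and stayed unnamed. No venous marker was 2-fold or more over the other clusters of library 1 together, which include 1a and 1e. Yet 1b held Selp at 1221 CPM, in 73.7% of its cells, and Vcam1 at 780 CPM, in 57.9%.

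The 620 cells of library 2 fell into 9 clusters. Cluster 2c (66 cells) was venous-like by 6 markers, cluster 2g (12 cells) lymphatic-like by 7 markers, and cluster 2h (17 cells) dividing-like by 7 markers, led by Ube2c and Top2a. The others stayed unnamed. Cluster 2a (135 cells) was led by Rbp7, Apoc4 and Car4 among others, 2d (48 cells) by haemoglobin genes, Apln and Esm1, and 2f (72 cells) by Pi16 and Cytl1. In 2d, 1 of the 48 cells held 3 or more UMIs of red cell markers, so the cluster as a whole did not share the haemoglobin lead. Cluster 2b (174 cells) had the fewest UMIs, a median of 3070.5 per cell, and 6 neuron markers at 2-fold or more over the other clusters. Cluster 2e (88 cells) held all 9 mural markers, and 2i (8 cells) held 8 glia and 6 lymphatic markers. Both were kept as the rule gives them, and results that change without them are given below.

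**Figure D1:**
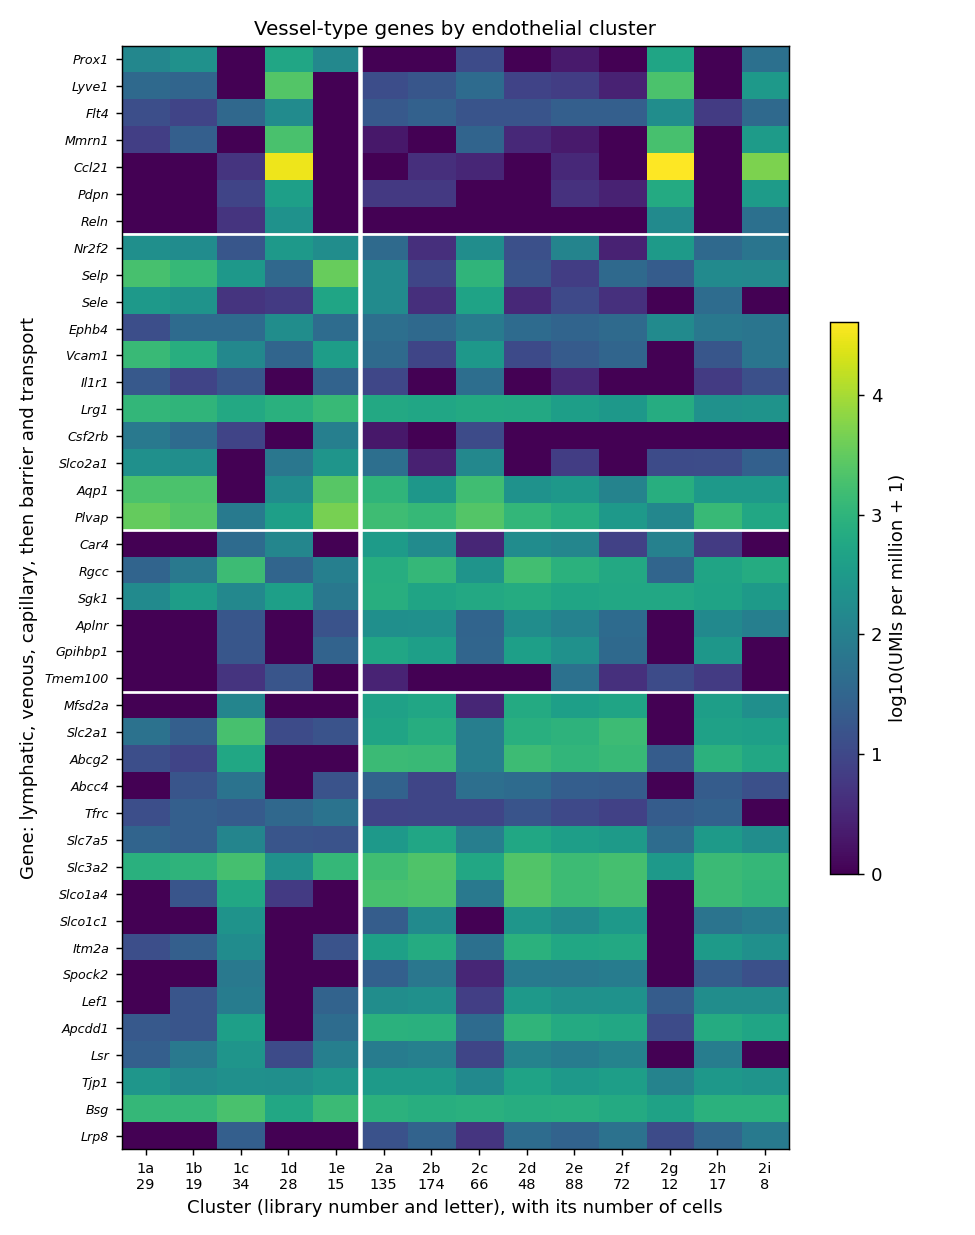
Level of each measured lymphatic, venous, capillary and barrier gene (rows, in that order) in each cluster of endothelial cells (columns, library 1 left of the thick white line and library 2 right of it, with the number of cells). Colour is log10 of CPM plus 1. The lymphatic genes light up mainly in 1d of library 1 and 2g of library 2. In 2i, 6 lymphatic markers were 2-fold or more over the other clusters, and Prox1 was also found in 1a, 1b and 1e. The carriers Slco1a4, Abcg2 and Mfsd2a light up mainly in 1c of library 1 but in 2a, 2b, 2d, 2e, 2f and 2h of library 2.

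Of the 9053 genes measured between libraries, 8.3% were called higher in library 1 and 19.1% lower, and the counts of each list below are to be read against these shares. All 7 measured lymphatic genes were called higher in library 1, with a median log2 ratio of 3.19. Their median was -0.01 in fibroblast-gated cells and 2.21 in the rest of the 2 libraries. The rest is a different mix of cells in each library. Prox1 was at 202 CPM in library 1 and 13.6 CPM in library 2, a log2 ratio of 3.89 (3.45 to 4.34). Lyve1, a hyaluronan receptor, was at 597 CPM in library 1 and 62.1 CPM in library 2, and Mmrn1, a matrix protein, at 474 CPM in library 1 and 51.7 CPM in library 2. Ccl21, the chemokine that draws dendritic cells into lymphatics, was at 7440 CPM in library 1 and 994 CPM in library 2. Reln, Pdpn and Flt4 had log2 ratios of 3.66, 2.04 and 1.22.

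The lymphatic genes stood in few cells. At least 3 of the 7 were found together in 21 of 125 cells of library 1, or 16.8% (10.7% to 24.5%), and in 16 of 620 cells of library 2, or 2.58% (1.48% to 4.16%). After thinning every cell to 1000 UMIs, the shares were 13.6% of 125 cells in library 1 and 1.81% of 608 cells in library 2. Within the lymphatic-like clusters the levels of the 2 libraries were near each other. Ccl21 stood at 30819 CPM in 1d and 40918 CPM in 2g, Mmrn1 at 1942 CPM in 1d and 1893 CPM in 2g, and Prox1 at 535 CPM in 1d and 515 CPM in 2g. Cldn11, a tight junction protein among the 10 named genes highest in library 1, was at 127 CPM in library 1 and 3.46 CPM in library 2. Cluster 1d held 92.2% of the Cldn11 UMIs of library 1. Without 1d, 2g and 2i, 4 of the 7 lymphatic genes were no longer measured, the median of the other 3 was 0.43, and Flt4 had a log2 ratio of -0.039.

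Prox1 was also found outside the lymphatic-like cluster of library 1. It had 22 UMIs in 13 of 29 cells of 1a, or 133 CPM, 27 UMIs in 12 of 19 cells of 1b, or 213 CPM, and 10 UMIs in 6 of 15 cells of 1e, or 139 CPM. In 1c it had 0 UMIs in 34 cells. In library 2 it had 5 UMIs in 4 of the 66 cells of venous-like 2c, or 10.4 CPM, 4 UMIs in 2 of the 8 cells of 2i, 1 UMI in 2e and none in 2a, 2b, 2d, 2f or 2h. Among cells with fewer than 3 lymphatic genes, Prox1 was detected in 35 of 104 in library 1 (33.7%) and in 5 of 604 in library 2 (0.828%). In the rest of the libraries, 0.515% of barcodes of library 1 and 0.295% of library 2 had a Prox1 UMI, at median depths of 6638 UMIs in library 1 and 1509 in library 2. Over all endothelial cells the share with a Prox1 UMI was 39.2% in library 1 and 2.74% in library 2, and thinned to 1000 UMIs it was 12.8% in library 1 and 0.987% in library 2. The other lymphatic genes were scarcer there: Ccl21, far more abundant in 1d, had 0 UMIs in 1a, 1b and 1e, and so had Pdpn and Reln. Lyve1 had 6 UMIs in 1a, 4 in 1b and 0 in 1e, and Mmrn1 had 1 UMI in 1a, 3 in 1b and 0 in 1e. Flt4, the receptor of the lymphatic growth factor VEGF-C, had 2 UMIs in 1a, 1 in 1b and 0 in 1e, but 9 UMIs in 8 of the 34 cells of 1c, and 1d held 73.3% of its UMIs in library 1. In library 2, Flt4 was found in 78 cells, of which 2g and 2i held 6 and 2. Between the venous-like clusters, Prox1 in 1a and 1e together was at 135 CPM and 2c at 10.4 CPM, a log2 ratio of 3.69 (2.32 to 5.41).

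**Figure D2:**
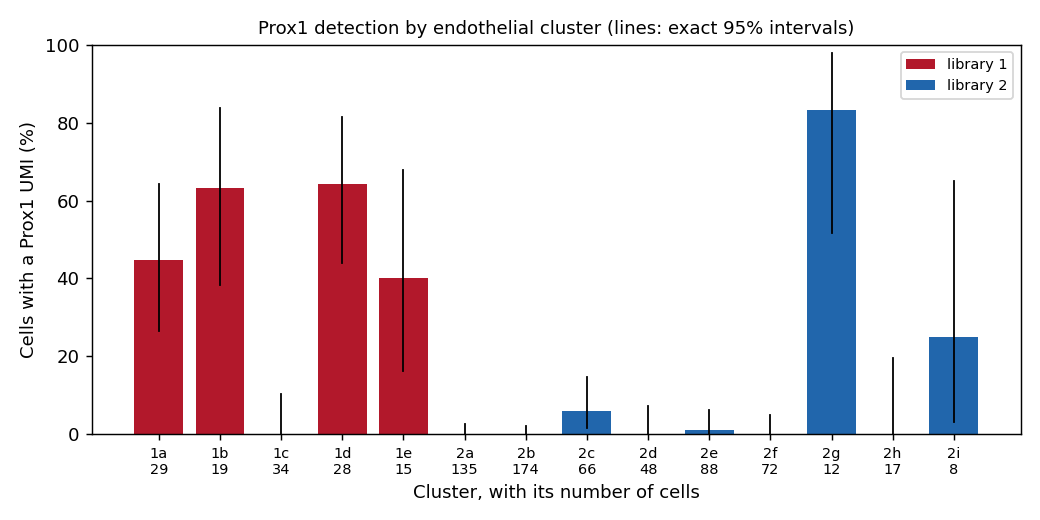
Share of cells with at least 1 Prox1 UMI (vertical axis, percent) in each endothelial cluster (horizontal axis, with the number of cells), library 1 in red and library 2 in blue; black lines are exact 95% intervals for counting error. In library 1 all clusters but 1c hold Prox1, and in library 2 it stands mainly in 2g, at 83.3% of 12 cells.

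Of 11 measured venous genes, 5 were called higher in library 1 and 0 lower, with a median log2 ratio of 0.90. Their median was -1.33 in fibroblast-gated cells and 1.29 in the rest of the 2 libraries. Selp, the P-selectin that starts leukocyte rolling, was at 972 CPM in library 1 and 175 CPM in library 2, a log2 ratio of 2.48 (2.33 to 2.62). Vcam1, the ligand of leukocyte integrins, was at 477 CPM in library 1 and 52.4 CPM in library 2, a ratio of 3.19 (2.95 to 3.43). Nr2f2, the transcription factor that specifies veins, had a ratio of 1.33 (1.02 to 1.64). Lymphatic-like 1d held 45.0% of the Nr2f2 UMIs of library 1, and without 1d, 2g and 2i the Nr2f2 ratio was 1.01 (0.61 to 1.39). Plvap, the protein of fenestral diaphragms, had a ratio of 0.44 (0.35 to 0.53). The fibroblast-gated cells of the 2 libraries had a Vcam1 ratio of -0.31.

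Within the venous-like clusters the difference was smaller. Cluster 1b, which held Selp and Vcam1 but stayed unnamed, is not among them. Of 3198 measured genes, 8.13% were called higher in 1a and 1e than in 2c and 17.5% lower, and of 10 venous genes 2 were called higher and 2 lower, with a median of 0.54. Selp stood at 2343 CPM in 1a and 1e and 1053 CPM in 2c, a log2 ratio of 1.15 (0.98 to 1.33). Vcam1 stood at 1041 CPM in 1a and 1e and 284 CPM in 2c, a ratio of 1.87 (1.57 to 2.19). Bmp4, a growth factor of these cells, was at 683 CPM in 1a and 1e and 773 CPM in 2c, a ratio of -0.18 (-0.45 to 0.09). Slco1a4 and Rgcc, which mark other vessels, were lower in 1a and 1e: Rgcc stood at 50.6 CPM there and 240.2 CPM in 2c.

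Of 21 adhesion molecules and chemokines of inflammation, 9 were called higher in library 1 and 4 lower, with a median log2 ratio of 0.59. The same genes had medians of -0.37 in fibroblast-gated cells and 1.69 in the rest of the 2 libraries. In 1c against the blood endothelial cells of library 2 (all but 2g and 2i), 5 were called higher and 5 lower, with a median of 0.34. Icam1, the other integrin ligand, was at 811 CPM in library 1 and 173 CPM in library 2. Cxcl1, which draws neutrophils, was at 4127 CPM in library 1 and 524 CPM in library 2, a ratio of 2.98 (2.90 to 3.06). Il33, an alarm cytokine stored in the nucleus, was at 245 CPM in library 1 and 43.4 CPM in library 2, and Il6 had a ratio of 1.71. The same ratio in fibroblast-gated cells was 0.16 for Cxcl1, 0.21 for Icam1 and 0.25 for Il33. The 4 called lower were Ccl5, Cxcl12, Irf1 and Socs3. Cxcl12, the chemokine that guides endothelial and blood precursor cells, was at 140 CPM in library 1 and 1064 CPM in library 2, a ratio of -2.92 (-3.20 to -2.66). In library 1, 94.7% of Cxcl12 UMIs lay in cluster 1c.

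Ccl5, a chemokine of T cells and monocytes, had 1 UMI in all 125 endothelial cells of library 1, at 1.23 CPM, and 1096 UMIs in 49.5% of the cells of library 2, at 253 CPM. With the floor its log2 ratio was -6.10 (-12.99 to -5.20). In library 2, Ccl5 was found in 58.5% of the cells of 2a, 49.4% of 2b, 81.2% of 2d, 64.8% of 2e and 44.4% of 2f, and in 0 of the 66 cells of venous-like 2c. The rest of library 2 had a Ccl5 UMI in 1.35% of barcodes and the fibroblast-gated cells in 1.18%. In the endothelial cells of libraries 3 and 4, Ccl5 stood at 0.653 and 0 CPM. Thinned to 1000 UMIs, 0% of cells in library 1 and 17.6% in library 2 had a Ccl5 UMI. The T cell and NK cell markers Cd3e, Cd3d, Cd2, Nkg7 and Gzmb had 0 UMIs in the endothelial cells of library 2.

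Among the 10 named genes highest in library 1 and enriched over the rest there, Csf3 came first, at 328 CPM in library 1 and 7.62 CPM in library 2, a log2 ratio of 5.43, with a lower bound of 4.90. It was found in 19.2% of cells of library 1, and 1 cell held 31.8% of its UMIs. Olr1, a receptor for oxidised lipoprotein, was at 221 CPM in library 1 and 6.01 CPM in library 2, with 10.0% of its UMIs in 1 cell. Fabp4, a fatty acid carrier, was at 3597 CPM in library 1 and 230 CPM in library 2, a ratio of 3.97 (3.87 to 4.07). It stood at 9012 CPM in 1a, 6049 CPM in 1b and 8863 CPM in 1e, but at 55.5 CPM in 1c, and at 1826 CPM in 2c. In the endothelial cells of libraries 3 and 4, Fabp4 stood at 408 and 6441 CPM.

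Cytl1, a small secreted protein, was at 404 CPM in library 1 and 26.8 CPM in library 2. Its ratio was 3.91 in endothelial cells, 1.82 in fibroblast-gated cells and 4.89 in the rest of the 2 libraries. It was found in every cluster of library 1, from 178 CPM in 1c to 662 CPM in 1b, and in library 2 at 143 CPM in 2f and 200 CPM in 2g, against 0 to 61.5 CPM in the others. Hmox1, the haem-degrading enzyme, was at 860 CPM in library 1 and 64.0 CPM in library 2. Its ratio was 3.75 (3.55 to 3.95) in endothelial cells, 1.05 in fibroblast-gated cells and 2.81 in the rest of the 2 libraries. Mthfd2, Pdlim4 and Tc2n had ratios of 3.86, 3.51 and 4.12, and 99.0% of the Tc2n UMIs of library 1 lay in cluster 1d.

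**Figure D3:**
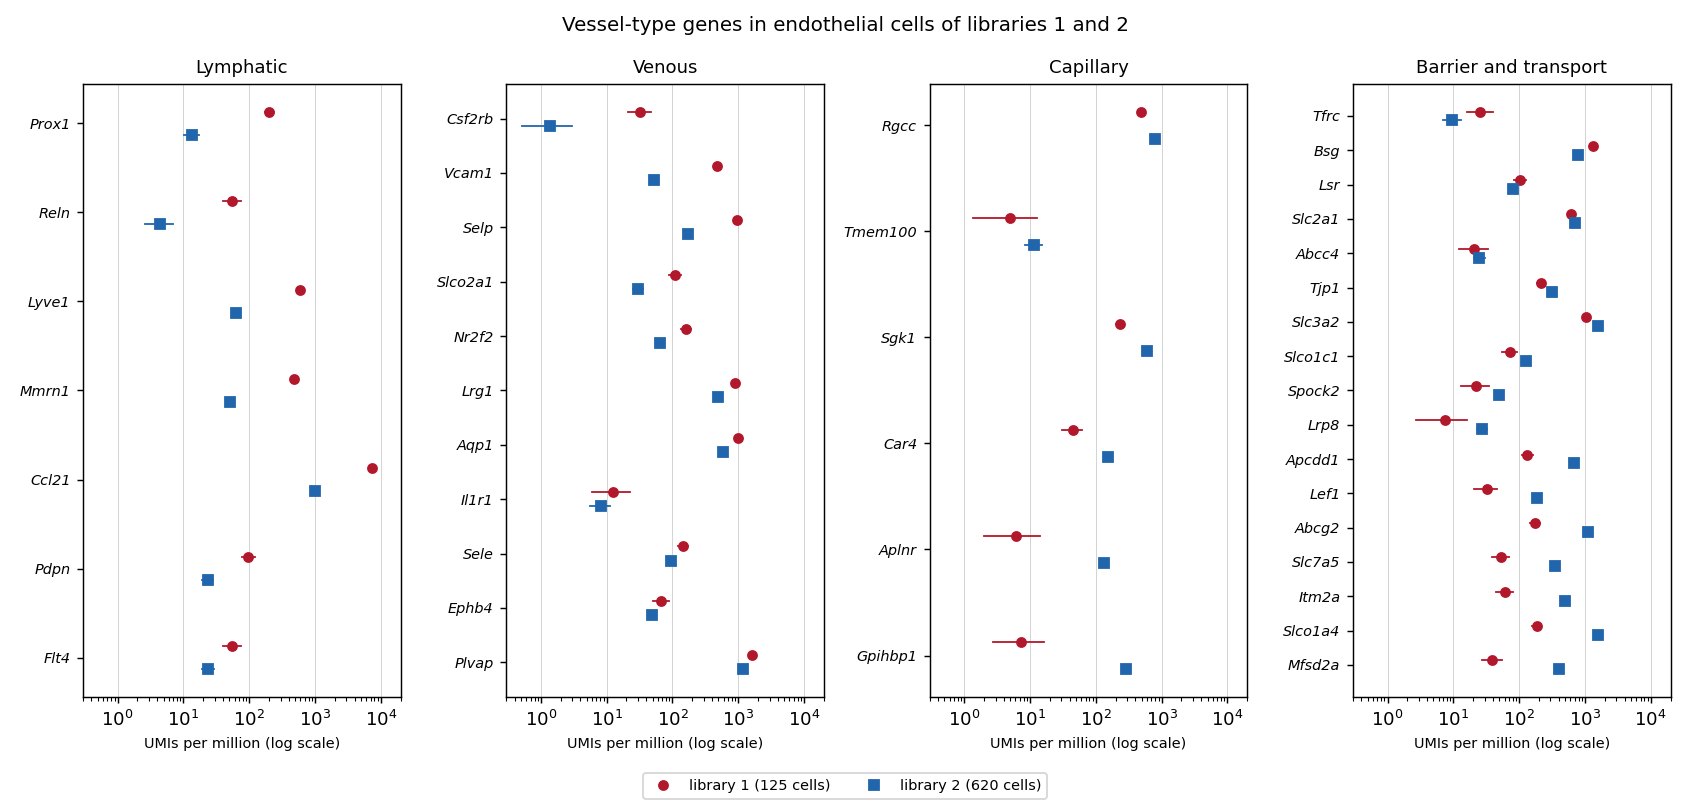
CPM (horizontal axis, log scale) of each measured gene of the lymphatic, venous, capillary and barrier lists in endothelial cells, library 1 as red circles and library 2 as blue squares, with exact 95% intervals for counting error. Every lymphatic and venous gene lies further right in library 1, every capillary gene further right in library 2, and barrier genes fall on both sides, from Tfrc at 1.41 to Mfsd2a at -3.36 on the log2 scale.

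Genes of the blood-nerve barrier and its transporters were lower in library 1 over all its endothelial cells. Of 17 measured, 9 were called lower and 1 higher, with a median log2 ratio of -1.16. The same genes had medians of -0.72 in fibroblast-gated cells and -0.52 in the rest of the 2 libraries. Slco1a4, an organic anion carrier, was at 186 CPM in library 1 and 1555 CPM in library 2, a ratio of -3.07 (-3.31 to -2.83). Abcg2, a drug efflux pump, was at 176 CPM in library 1 and 1110 CPM in library 2, a ratio of -2.66 (-2.91 to -2.42). Mfsd2a, the lipid carrier that holds transcytosis down, was at 39.4 CPM in library 1 and 404 CPM in library 2. Slc7a5, the large neutral amino acid carrier, had a ratio of -2.73 (-3.20 to -2.29). Slc2a1, the glucose carrier, was at 608 CPM in library 1 and 718 CPM in library 2 and was not called. Abcb1a and Foxq1 were not analysed here.

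In library 1 these genes were concentrated in cluster 1c. It held 98.0% of the Slco1a4 UMIs of the library, 97.9% of those of Abcg2, 96.96% of those of Slc2a1, and all UMIs of Mfsd2a and Slco1c1, the thyroid hormone carrier. Cluster 1c was also set against all blood endothelial cells of library 2, which here means all but 2g and the unnamed 2i. This set kept 2e, with its mural markers, and 2b, with its neuron markers. Against it, 1c had 5 of the 17 barrier genes called higher and 6 lower, with a median of -0.18. Of 8869 measured genes, 11.7% were called higher and 12.6% lower. Slc2a1 was then higher, at 1898 CPM in 1c and 741 CPM in library 2, and Slco1a4 lower, at 586 CPM in 1c and 1599 CPM in library 2. Rgcc, a capillary gene, stood at 1438 CPM in 1c and 828 CPM in library 2. In library 2 the same transporters were spread over 2a, 2b, 2d, 2e and 2f, where Slco1a4 stood between 1463 and 2402 CPM, and were low in 2c at 71.0 CPM.

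Wnt receptors and targets were lower in library 1, with 8 of 12 called lower, 2 higher and a median log2 ratio of -1.15. In fibroblast-gated cells the same genes had a median of -0.04. Lef1, a Wnt effector that is itself a target, was at 32.0 CPM in library 1 and 186 CPM in library 2, a ratio of -2.54 (-3.17 to -1.98). Apcdd1, a Wnt inhibitor induced in barrier vessels, was at 134 CPM in library 1 and 680 CPM in library 2, a ratio of -2.34 (-2.63 to -2.07). Tspan12 and Fzd4, co-receptor and receptor of the ligand norrin, had ratios of -1.01 and -1.22. Fzd6 and Ctnnb1 had ratios of 1.29 and 1.19. Without clusters 1d, 2g and 2i the median was -1.21, where 7.49% of 8889 measured genes were called higher and 21.8% lower. In 1c against library 2 without those clusters it was -0.95, with 6 of 12 called lower and 0 higher.

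Axin2 and Nkd1 are feedback inhibitors that Wnt signals switch on. Axin2 was at 12.3 CPM in library 1 and 27.5 CPM in library 2, a log2 ratio of -1.16 (-2.26 to -0.23). Nkd1 was at 14.8 CPM in library 1 and 66.5 CPM in library 2, a ratio of -2.17 (-3.14 to -1.34). Counts in library 1 were low: lymphatic-like 1d held 7 Axin2 UMIs, 70% of those of the library, and 1c held 3. Of Nkd1, 1d held 4 UMIs and 1c held 8. The promoters of Axin2 and Nkd1 are shown because Wnt signals act through TCF and LEF factors, whose core motif is CTTTGA. RefSeq promoters of 300 bases (250 before and 50 after the start, build GRCr8) were at hand for 9 genes of the list, and 4 held CTTTGA or its reverse complement TCAAAG, as did 16.1% of all 33469 promoters. Each is written 5′ to 3′ on its gene's strand, with the motif in capitals. Axin2 lies at chr10:94398535-94398834 on the plus strand and Nkd1 at chr19:34722797-34723096 on the minus strand.
Axin2: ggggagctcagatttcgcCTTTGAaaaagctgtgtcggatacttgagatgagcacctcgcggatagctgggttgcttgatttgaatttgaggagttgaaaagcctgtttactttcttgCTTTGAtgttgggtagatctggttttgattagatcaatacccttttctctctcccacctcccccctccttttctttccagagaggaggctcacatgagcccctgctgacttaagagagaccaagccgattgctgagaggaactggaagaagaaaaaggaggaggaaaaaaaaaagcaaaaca
Nkd1: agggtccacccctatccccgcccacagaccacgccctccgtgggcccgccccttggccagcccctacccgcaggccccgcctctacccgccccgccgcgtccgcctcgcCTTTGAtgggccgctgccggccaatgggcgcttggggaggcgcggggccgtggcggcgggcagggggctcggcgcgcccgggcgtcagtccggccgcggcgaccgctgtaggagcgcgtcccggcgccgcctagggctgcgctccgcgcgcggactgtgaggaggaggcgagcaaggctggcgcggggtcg
Axin2 holds 2 copies and Nkd1 1. A match describes these letters and is not evidence that a factor binds there.

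Capillary genes were lower in library 1, with 5 of 6 called lower, 0 higher and a median log2 ratio of -1.57. The same genes were lower in other cells too, with medians of -2.23 in fibroblast-gated cells and -1.18 in the rest of the 2 libraries. Gpihbp1, which anchors lipoprotein lipase on capillary walls, was at 7.38 CPM in library 1 and 283 CPM in library 2, a ratio of -5.26 (-6.71 to -4.14). Aplnr, the apelin receptor, was at 6.15 CPM in library 1 and 132 CPM in library 2. Car4 had a ratio of -1.77 and Sgk1, a salt- and stress-regulated kinase, one of -1.37. Cluster 1c, which carried the transporters, had Gpihbp1 at 15.9 CPM and Aplnr at 15.9 CPM, against 536 CPM and 195 CPM in 2a. Of the 6 genes, 4 were called lower in 1c than in the blood endothelial cells of library 2.

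The named genes lowest in library 1 included the tip cell gene Esm1, a proteoglycan of sprouting capillaries, with 3 UMIs at 3.69 CPM in library 1 and 1455 UMIs at 336 CPM in library 2. Its log2 ratio was -6.51 (-8.79 to -4.96). Fibroblast-gated cells had an Esm1 UMI in 10.9% of cells in library 1 and 12.8% in library 2, so in library 1 it was detected less in endothelial cells (2.4%) than in those. Alpl, tissue-nonspecific alkaline phosphatase, was at 15.99 CPM in library 1 and 674 CPM in library 2 and was found in 7.2% of cells in library 1 and 77.6% in library 2. Chodl, a membrane lectin, had 0 UMIs in library 1 and 437 in library 2, and its ratio of -4.77 is a bound against the floor. Apoc4, an apolipoprotein, was at 6.15 CPM in library 1 and 111 CPM in library 2, and Lurap1l at 6.15 CPM in library 1 and 131 CPM in library 2. Esm1, Alpl, Chodl, Apoc4 and Lurap1l had 0 UMIs in 1a and 1b.

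Haemoglobin genes were also named as higher in library 2. They are given with care, because 4 cells held 12752 of the 13032 haemoglobin UMIs (97.9%) of the endothelial cells of library 2. Hbb had 9 UMIs in library 1 and 5696 in library 2. Hba-a2 has 2 gene IDs in the table, between which reads of near-identical copies may be split, and Alas2, a haem enzyme of red cells, had 0 UMIs in library 1 and 34 in library 2. The median endothelial cell had 0 haemoglobin UMIs in both libraries.

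Of 10 measured genes of sprouting tip cells, 4 were called lower in library 1 and 2 higher, with a median log2 ratio of -0.68. Their median was -0.78 in fibroblast-gated cells and 0.61 in the rest of the 2 libraries. Pdgfb, the factor that recruits pericytes, was at 25.8 CPM in library 1 and 114 CPM in library 2. Angpt2, the ligand that loosens vessel walls, went the other way, at 128 CPM in library 1 and 37.7 CPM in library 2, a ratio of 1.76 (1.40 to 2.13), and stood at 265 CPM in 1d and 221 CPM in 2g. Of 11 measured VEGF and angiopoietin genes, 5 were called higher and 2 lower, with a median of 0.63. The same genes had medians of -1.28 in fibroblast-gated cells and 1.62 in the rest of the 2 libraries. The VEGF co-receptor Nrp1, of arteries and capillaries, had a ratio of -1.98 (-2.31 to -1.66) and Nrp2, of veins and lymphatics, one of 1.69 (1.42 to 1.97). Without clusters 1d, 2g and 2i the median of the list was -0.08, with 2 called higher and 3 lower.

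Notch genes had a median log2 ratio of -1.03, with 5 of 10 called lower and 0 higher. The same genes had medians of -1.99 in fibroblast-gated cells and -1.92 in the rest of the 2 libraries. Dll4, the arterial and tip cell ligand, was at 49.2 CPM in library 1 and 122 CPM in library 2. Nrarp, a target that feeds back on Notch, was at 88.6 CPM in library 1 and 198 CPM in library 2, and Notch1 had a ratio of 0.31. Of 12 measured arterial genes, 4 were called lower and 1 higher, with a median of -0.49. Their median was -1.56 in fibroblast-gated cells and -0.94 in the rest. One of the arterial genes called lower was Stmn2, which neurons also make and which is described above. The higher one was Mgp, an inhibitor of BMPs and calcification, at 4585 CPM in library 1 and 704 CPM in library 2, a ratio of 2.70 (2.63 to 2.77). Its level in 1a was 11551 CPM and in 2c 2344 CPM.

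Among 15 TGF-beta and BMP genes, 6 were called lower and 2 higher, with a median of -0.49. Id1, the main BMP target, was at 197 CPM in library 1 and 1300 CPM in library 2, a log2 ratio of -2.72 (-2.96 to -2.50), and Id3 at 241 CPM in library 1 and 1187 CPM in library 2. In fibroblast-gated cells the Id1 ratio was -2.82 and the Id3 ratio -0.47. Bmp4 and Tgfb1, ligands of the pathway, had ratios of 1.98 and 1.26, and Bmp4 was found in 52.8% of cells in library 1 and 9.35% in library 2.

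Cell cycle genes were lower in library 1, with 10 of 17 called lower, 1 higher and a median log2 ratio of -1.21, where the same genes in fibroblast-gated cells had a median of 0.38. Mki67, which marks dividing cells, had 0 UMIs in library 1 and 132 in library 2. Cdk1, the mitotic kinase, had 2 UMIs in library 1 and 136 in library 2, a ratio of -3.09 with the floor (-6.73 to -1.79). The replication factors Pcna and Mcm2 had ratios of 0.09 and 0.79, and Mcm3 one of 1.47. All 10 called lower were genes of mitosis or of chromatin in dividing cells, and library 2 held the dividing-like cluster 2h.

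Immediate early genes had a median log2 ratio of -1.40, with 12 of 18 called lower and 1 higher. The same genes had medians of -1.38 in fibroblast-gated cells and -0.13 in the rest of the 2 libraries. Fos, a transcription factor switched on within minutes of stimulation, was at 699 CPM in library 1 and 4340 CPM in library 2, and Egr1 at 579 CPM in library 1 and 2517 CPM in library 2. The Fos ratio was -2.63 in endothelial cells and -2.01 in fibroblast-gated cells. Of 13 heat shock genes, 2 were called higher and 2 lower, with a median of -0.31. Hspa1a, the inducible chaperone, was at 288 CPM in library 1 and 2624 CPM in library 2, and its ratio was -3.19 in endothelial cells and -2.95 in fibroblast-gated cells. Hspa5, the chaperone of the endoplasmic reticulum, was higher, with a ratio of 2.06 (1.96 to 2.15) in endothelial cells and 0.23 in fibroblast-gated cells.

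**Figure D4:**
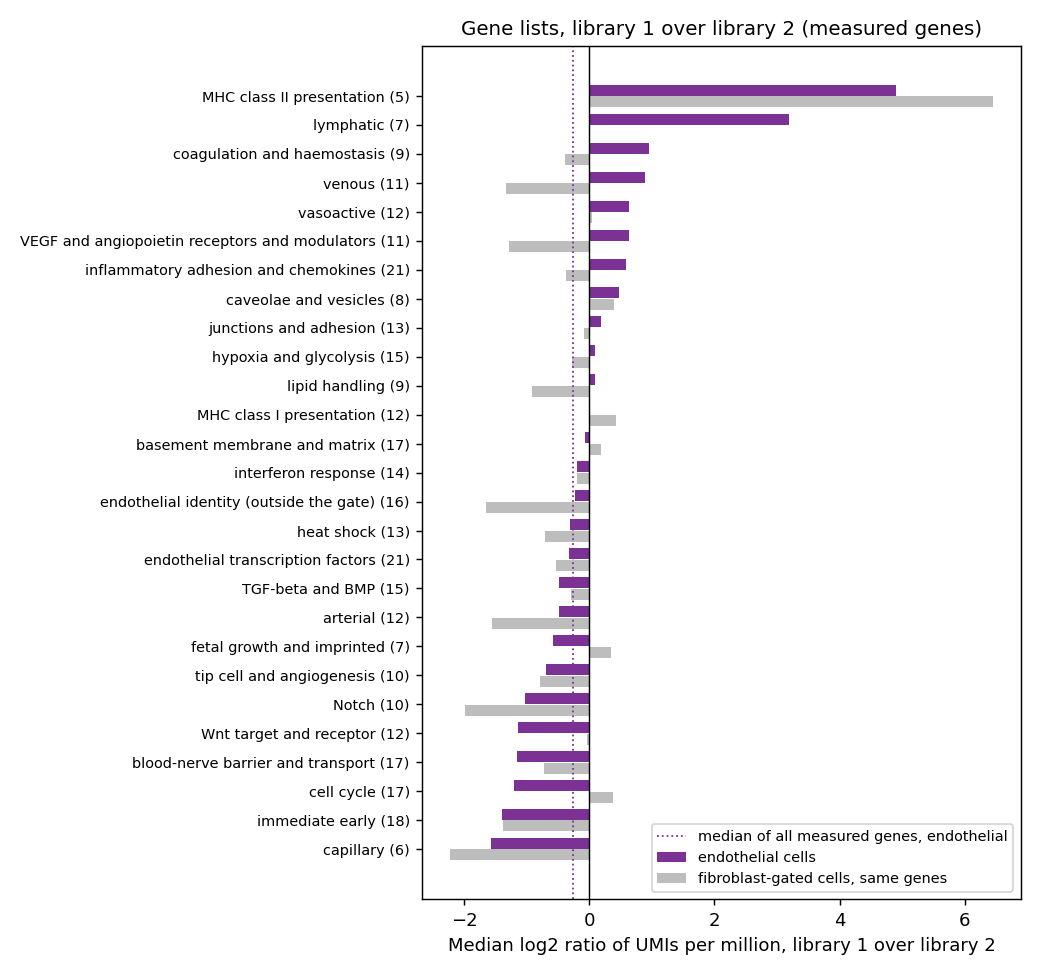
Median log2 ratio of library 1 over library 2 (horizontal axis) of each gene list (vertical axis, with the number of measured genes in parentheses), for endothelial cells in purple and for the same genes in fibroblast-gated cells in grey; the dotted line is the endothelial median of all measured genes, -0.27. Immediate early genes lie at about the same place in both cell types, -1.40 and -1.38, and lymphatic, venous and cell cycle genes lie on different sides or far apart. The rest of the 2 libraries is not drawn, and immediate early genes had a median of -0.13 there.

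Of 9 anticoagulant and haemostatic genes, 4 were called higher in library 1 and 0 lower, with a median of 0.96. In fibroblast-gated cells their median was -0.39, and in the rest of the 2 libraries it was 1.62. Procr, the endothelial protein C receptor, was at 1599 CPM in library 1 and 414 CPM in library 2, a log2 ratio of 1.95 (1.85 to 2.05), and Thbd, thrombomodulin, at 968 CPM in library 1 and 498 CPM in library 2. The direction turned within the venous-like clusters, where 5 of 9 were called lower in 1a and 1e than in 2c and 1 higher, with a median of -1.13. Of 12 vasoactive genes, 5 were called higher and 2 lower, with a median of 0.63. In fibroblast-gated cells their median was 0.04, and in the rest of the 2 libraries it was 1.65. Nos3, the endothelial nitric oxide synthase, was at 154 CPM in library 1 and 47.6 CPM in library 2, and Edn1, the vasoconstrictor endothelin, at 28.3 CPM in library 1 and 8.32 CPM in library 2. Calcrl, the receptor of adrenomedullin, had a ratio of -1.05, while its partner Ramp2 had one of 1.33.

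Lipid genes were split, with 3 of 9 called higher, 2 lower and a median log2 ratio of 0.09. Fabp4 and Lpl, lipoprotein lipase, were higher, at 3.97 and 1.81, and Gpihbp1 and Scarb1, the HDL receptor, were lower, at -5.26 and -1.60. Of 8 caveolar genes 1 was called higher, with a median of 0.47, and Cav1, the caveolar scaffold, had a ratio of -0.78. Of 13 junction genes 1 was called higher and 1 lower, with a median of 0.19. The lower one was Jam3, a junctional adhesion molecule, at 9.84 CPM in library 1 and 156 CPM in library 2, a ratio of -3.99 (-5.21 to -3.00).

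Basement membrane genes had a median of -0.07 between libraries, with 4 of 17 called higher and 3 lower. Fn1, fibronectin, was at 263 CPM in library 1 and 37.2 CPM in library 2, and Sparcl1, a matrix-binding glycoprotein, at 316 CPM in library 1 and 1103 CPM in library 2. Over the rest of the library the same genes had a median log2 ratio of -1.02 in library 1, with 9 called lower and 5 higher, where 12.8% of all measured genes were called lower. In library 2 the median was 1.81, with 12 higher and 1 lower, where 25% of all were called lower. Sparc, an abundant matrix protein of fibroblasts too, was at 1993 CPM in endothelial cells and 23461 CPM in the rest of library 1. In library 2 it was at 4323 CPM in endothelial cells and 1235 CPM in the rest. Fibroblast-gated cells numbered 7003 in library 1 and 508 in library 2, so the rest is a different mix of cells in each.

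MHC class I genes differed little, with 0 of 12 called in either direction and a median of 0.01. B2m, the light chain, was at 7464 CPM in library 1 and 6189 CPM in library 2. The class I genes of the rat RT1 region are near-identical copies between which reads may be split. All 5 measured class II genes were called higher, with a median of 4.90, but Cd74 was at 114 CPM in endothelial cells and 2820 CPM in the rest of library 1, and the same genes had a median of 6.46 between fibroblast-gated cells. Few cells carried them. In 1d, 4 of the 28 cells held 78.5% of the Cd74 UMIs of library 1, and 4 held 65.4% of those of RT1-Da. Without clusters 1d, 2g and 2i, 1 of the 5 class II genes was still measured, at 2.75. Of 14 interferon genes 3 were called higher and 0 lower, with a median of -0.20. Ifit3, an antiviral effector, had a ratio of 2.28 (2.09 to 2.47), and -0.50 in fibroblast-gated cells.

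In the hypoxia and glycolysis list 2 of 15 were called higher and 1 lower, with a median of 0.10. Egln3, an oxygen sensor, had a ratio of 3.04 (2.26 to 3.84). Of 7 fetal growth and imprinted genes 1 was called higher and 2 lower, with a median of -0.59. Igf2, the fetal growth factor, was higher, at 55.4 CPM in library 1 and 12.9 CPM in library 2. Ndn, an imprinted gene that neurons also express, was lower, at 2.46 CPM in library 1 and 102 CPM in library 2, where the rest of library 2 stood at 414 CPM. Of the sex-linked list, 2 genes of the Y chromosome were measured and 0 called, with a median of -0.02.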

How the data were processed

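Single cells of 4 rat nerve and ganglion samples were sequenced by 10x Genomics 3' chemistry. The authors deposited 1 pooled matrix of raw UMI counts per gene and barcode, and barcode suffixes 1 to 4 mark its libraries. Per the file headers it was made with Cell Ranger 3.1.0, and the submitters' processing notes name CASAVA 1.8, Seurat and the build Rnor_6.0; the filters behind the deposited barcodes are not given in the sources used here. No column of per-sample values was left unused.

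Barcodes were filtered and gated as the report states. Counts were summed over the cells of a set and scaled to 1000000 UMIs. Ratios used a floor of 3 UMIs on each side and exact conditional 95% intervals, and a gene was called at 2-fold or more with at least 20 UMIs on 1 side. Fibroblast-gated cells (Dcn, Lum and Pdgfra, by the same limits) served as a second comparison. The ratio step was tested on simulated counts. Each library's endothelial cells were clustered apart (Leiden on 1500 variable genes; 10 components and 10 neighbours in library 1, 15 and 15 in library 2), and a cluster was named from at least 3 markers of a type. Scrublet called 395 doublets in library 1 (4.02%), 3 of them endothelial, and 0 in library 2, where it did not work; none was removed in the values reported. Clustering used scanpy 1.11.5 and igraph 0.11.9 under Python 3.11.15, and intervals came from scipy 1.17.1.

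The members and the gene lists were chosen with earlier results of these data known. Of 371 genes in 28 lists, 357 were found, and the others were not analysed here. Besides list members, the genes named are the 10 highest and 10 lowest ratios between libraries among genes enriched over the rest, the 5 highest and 5 lowest without that condition, and the 10 highest over the rest of each library. Alternatives varied the filters, the gate, the minimum and floor of UMIs, depth, weighting and scale.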

Additional observations from a re-analysis of the deposited data

Results flagged for a closer look

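The basement membrane and matrix list lay on opposite sides of the rest in the 2 libraries. Its median log2 ratio of endothelial cells over the rest was -1.02 in library 1 and 1.81 in library 2, a difference of -2.83. Fibroblast-gated cells, which make these proteins too, numbered 7003 in library 1 and 508 in library 2. The difference was not tested, and the part of the fibroblast-gated cells in it was not tested.

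The red cell list also differed in direction, with a median over the rest of -2.83 in library 1 and 1.29 in library 2, a difference of -4.12. In library 2, 4 endothelial cells held 97.9% of the haemoglobin UMIs. The difference was not tested.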

How the results depend on the processing

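The endothelial share of library 2 moved to 8.12% with a mitochondrial limit of 10%, to 14.4% with a minimum of 1000 genes and to 6.52% with a gate sum of 8 UMIs. Of the 751 genes called higher in library 1 than in library 2, the count became 1864 with a minimum of 5 UMIs, 334 with a minimum of 100 and 340 with thinned cells, and the 1728 called lower became 836 with a minimum of 100, 665 with thinned cells and 1133 with the median ratio set to 0. Over the rest of library 1, the 4615 called higher became 2079 with a minimum of 100, and the 1726 called lower became 643 with thinned cells and 2705 with the median set to 0. Over the rest of library 2, the 3114 called higher became 4925 with a minimum of 5 and 1394 with thinned cells, and the 3382 called lower became 2107 with thinned cells. The cause was not tested. The share of called genes that were higher in library 1 than in library 2 was 30.3%, against 51.9% with a minimum of 5 and 48.8% with the median set to 0. Over the rest of library 1 it was 72.8%, against 54.6% with a minimum of 100, 56.8% with a floor of 1 UMI, 88.3% with thinned cells and 56.4% with the median set to 0, and over the rest of library 2 it was 47.9%, against 59.3% with a minimum of 5. Of 5356 recomputed gene ratios, 4798 were classed as the same, 553 as moved and 5 as reversed. Ptgs2 had -0.080 with thinned cells. Flt4 had -0.039 and Tbx1 -1.81 without 1d, 2g and 2i, and Abcc9 had 0.31 and Rgs5 1.28 without 2e and 2i; these cluster sets, 2b and the 4 cells rich in haemoglobin were left out in alternatives chosen after seeing the data. Of 419 recomputed list medians 31 moved: the lymphatic median ranged from 0.43 to 3.47, the venous from 0.79 to 1.16, the barrier from -1.53 to -0.72, the Wnt from -1.50 to -0.88, and the capillary from -2.50 to -1.31. The medians of 13 lists crossed 0, among them VEGF and angiopoietin (-0.23 to 0.89), vasoactive (-0.15 to 0.95), arterial (-0.52 to 0.47), fetal growth (-1.23 to 0.14), basement membrane (-0.65 to 0.20), lipid (-0.47 to 0.35) and junctions (-0.25 to 0.46). Leaving out cells with 3 or more UMIs of the glia, neuron, macrophage or red cell markers (fibroblast and mural markers were not part of this rule) left 122 cells of library 1 and 13 of library 2, too few for a value in library 2 or between libraries. No paired analysis was possible because each group has 1 sample and no library could be tied to one. The 812800 endothelial UMIs of library 1 limit what can be seen as lower there.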
